A study of Homo sapiens with 18 samples.

Results

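Gastrointestinal stromal tumors arise in the mesenchyme of the gut wall and usually depend on an activated KIT receptor kinase, and GIST-T1 is a human cell line of this tumor. RNA from these cells was compared between 24 h and 6 h of the kinase inhibitor imatinib, with 3 libraries at each time. These 6 of the 18 libraries of the series were taken by their treatment labels, and every gene of the table was considered. Imatinib was given at 500 nM in both groups. The other groups of 3 libraries received the solvent DMSO, for which the labels give no time, the BET bromodomain inhibitor JQ1 at 500 nM for 6 h or 24 h, or both drugs for 24 h. All groups are the same line, with no other genetic change in the labels, and whether replicate libraries came from separate cultures is not stated. The p-values thus cover the scatter of these libraries, which could be technical only.

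KIT is the receptor for stem cell factor, and its kinase feeds the RAS and ERK cascade and the PI3K and AKT pathway. ERK raises transcription of its own feedback inhibitors and of ETS family factors, while AKT keeps the FOXO transcription factors out of the nucleus. Cells that lose such growth signals leave the cycle: the RB family proteins then hold E2F factors off the promoters of DNA replication genes, and the DREAM complex holds down the genes of mitosis. The comparison of 24 h with 6 h sets a late against an early phase of KIT inhibition.

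Between 6 h and 24 h, the genes of DNA replication and of mitosis fell, all 38 and all 32 tested members of those lists. The ERK-driven factors ETV4 and ETV5 and the fatty acid carriers FABP4 and FABP5, already below DMSO at 6 h, fell further. The ERK feedback genes DUSP6, SPRY2 and SPRY4 and KIT itself had also been far below DMSO at 6 h. The feedback genes and KIT were lower again at 24 h by less than the size threshold. A small set of genes rose, among them CD24, a surface glycoprotein, MB, the oxygen carrier myoglobin, and LY86, a secreted protein. Most genes lay lower at 24 h, so each change is set beside the shift of all genes.

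Expression is given in FPKM, fragments scaled to transcript length and library size, on the deposited scale, where the ERCC spike-in transcripts, which were added in relation to cell number, have level sums in both groups. A gene was called as risen or fallen where its limma p, adjusted over 12771 tested genes by Benjamini-Hochberg, was below 0.05 and its change in log2(FPKM + 1) was at least 1 in size. On this deposited scale 64 genes rose, 0.501% of those tested, and 4266 fell, 33.4%. The 24 h libraries all lay above the 6 h libraries for 563 genes (4.41%) and all below them for 10795 (84.5%). The median gene changed by -0.77 on the log2 scale, with quartiles at -1.14 and -0.41. Total FPKM was 1284600 ± 27412 at 6 h and 480240 ± 34281 at 24 h (mean ± SD, n = 3), 2.67-fold lower, with p = 0.1 in an exact two-sided permutation test, the smallest that 3 against 3 can give. The rows named MIR1244, a short locus with several copies, held 481690 and 98869 FPKM of these sums, and the ratio of totals without them was 0.475. ERCC sums were 6641 ± 85.9 and 6674 ± 47.7.

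To set a gene against the others of its library, each library was also divided by a factor, the median over genes of its ratio to the geometric mean library. After this ratio rescaling the median change was 0.03, 508 genes rose (3.98%) and 560 fell (4.38%). All 64 rises were among the 508, and all 560 falls were among the 4266, so 3706 falls on the deposited scale were not called relative to the other genes. "Rescaled" below refers to this setting. The ± after a log2 change is its standard error in the fit, and the added 1 makes them smaller than the ratio of FPKM for low genes.

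**Figure D1:**
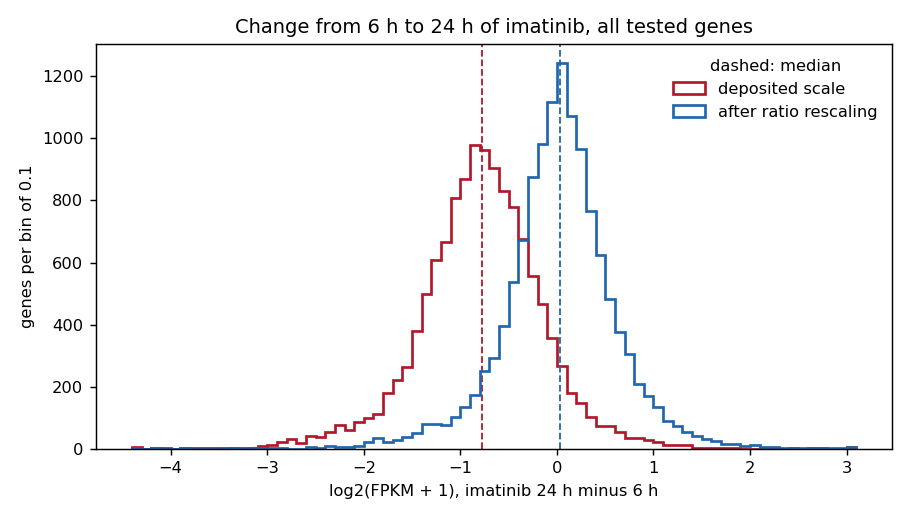
Number of tested genes in bins of 0.1 of the log2(FPKM + 1) difference, imatinib 24 h minus 6 h, on the deposited scale (red) and after ratio rescaling (blue), with dashed lines at the medians. The whole red distribution is centred at -0.77 and the blue at 0.03.

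KIT, the target of imatinib, was measured at 185, 181 and 201 FPKM at 6 h and 136, 155 and 142 FPKM at 24 h, against a mean of 644 in DMSO. The 24 h libraries all lay below the 6 h libraries, yet the change of -0.39 ± 0.18 was below the size threshold and smaller than the shift of all genes (adjusted p = 0.0471; 0.57 rescaled). PDGFRA, the related receptor that can replace KIT as the driver of these tumors, was at 34.1, 33.1 and 36.5 FPKM at 6 h and 37.7, 42.6 and 38.8 FPKM at 24 h. Its change was 0.20 ± 0.17 on the deposited scale, and it rose by 1.13 after rescaling. KITLG, which encodes the KIT ligand, was low at both times, 3.07 to 1.26 FPKM, with a change of -0.85 ± 0.14.

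Several lineage factors of this tumor changed by less than the median of all genes. ETV1, the ETS factor on which these tumors depend, was at 69.6, 66.8 and 77.1 FPKM at 6 h and 60.7, 71 and 64.1 FPKM at 24 h, and the groups overlapped (change -0.12 ± 0.18, 0.83 rescaled). HAND1, a mesodermal transcription factor, went from 83.2 to 78.2 FPKM and FOXF1, a forkhead factor of gut mesenchyme, from 209 to 146 FPKM, with changes of -0.09 ± 0.20 and -0.52 ± 0.20. ANO1, the chloride channel DOG1 used in diagnosis, was at 143 and 89.3 FPKM (-0.68 ± 0.18). Each of KIT, ETV1, HAND1, FOXF1 and ANO1 was negative on the deposited scale and positive under every rescaling. Of 16 tested lineage and diagnostic genes 4 fell and 0 rose, and the list median was -0.59 against -0.77 for all genes. CD34, a surface glycoprotein that stains most of these tumors, fell furthest, from 1969.7, 1853 and 2066 FPKM to 483, 502 and 467 (-2.02 ± 0.20, adjusted p = 1.34e-08), and fell after rescaling too (-1.05). SDHB, a succinate dehydrogenase subunit (-1.6), and the developmental factors OSR1 (-1.08) and BARX1 (-1.03) fell only on the deposited scale, with rescaled values of -0.65, -0.12 and -0.10. Without the whole-library shift, PDGFRA and GPR20, an orphan receptor of interstitial cells (22.3 to 25.9 FPKM, rescaled 1.14), were the called rises of the list.

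**Figure D2:**
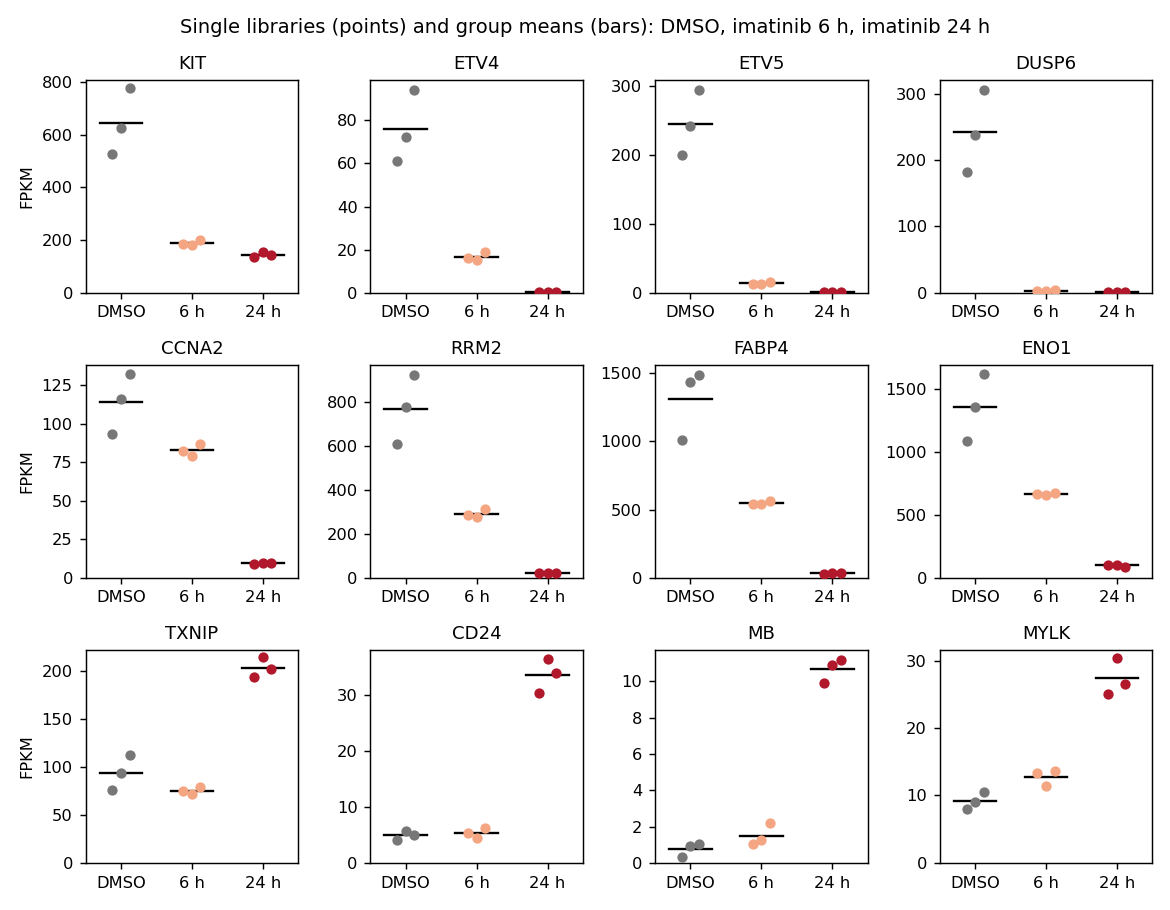
FPKM of 12 genes in each library (points) with group means (bars) for DMSO, imatinib 6 h and imatinib 24 h, each axis starting at 0. ETV4, ETV5, CCNA2, RRM2, FABP4 and ENO1 drop again after 6 h, KIT and DUSP6 are already low at 6 h, and TXNIP, CD24, MB and MYLK stand highest at 24 h.

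Among the genes that ERK drives, ETV4 and ETV5 were the called falls between the times. Of 18 tested members 2 fell and 0 rose, against 33.4% and 0.501% of all tested genes. The same 2 fell rescaled, where 4.38% of all did. The list median was -0.39 on the deposited scale, against -0.77 for all genes, and 0.13 rescaled. It was positive under each rescaling. Of the 20 listed genes 14 reached 1 FPKM in each 6 h library, and a role of low level was not tested. The 24 h libraries all lay below the 6 h libraries for 14 of the 18, against 84.5% of all genes. ETV4, an ETS factor downstream of ERK, was at 16.2, 15.3 and 18.7 FPKM at 6 h and 0.215, 0.206 and 0.138 FPKM at 24 h, where the late values are near the lowest of the table. Its change was -3.9 ± 0.16 (adjusted p = 1.58e-13; -3.32 rescaled). ETV5, its close relative, was at 12.8, 12.4 and 15.3 FPKM at 6 h and 0.575, 0.556 and 0.516 FPKM at 24 h (-3.22 ± 0.18, adjusted p = 1.04e-11; -2.56 rescaled). For both genes every 24 h library lay below every 6 h library, which was also a condition for the named falls. Both were already below DMSO at 6 h. Mean FPKM was 75.8 in DMSO and 16.7 at 6 h for ETV4, and 246 and 13.5 for ETV5.

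The feedback inhibitors were far below DMSO at 6 h and lower again at 24 h. DUSP6, the phosphatase that inactivates ERK, had a mean of 242 FPKM in DMSO and was at 3.01, 2.22 and 3.96 FPKM at 6 h and 1.01, 1.0 and 1.05 FPKM at 24 h. Its change of -0.99 ± 0.19 missed the size threshold and was -0.37 rescaled; without imatinib 6 h replicate 2 it was called, at -1.14. SPRY2 and SPRY4, Sprouty inhibitors of RAS signaling, went from 45.8 to 22.5 FPKM and from 5.02 to 2.35 FPKM. Their changes were -0.99 ± 0.18 and -0.83 ± 0.17, short of the threshold, and -0.06 and -0.09 rescaled. SPRY2 passed the threshold without imatinib 6 h replicate 1 (-1.01) or 2 (-1.04) and without 24 h replicate 2 (-1.02) or 3 (-1.0), so the list held up to 4 falls when a library was left out. CCND1, the D-type cyclin that ERK induces, was flat at 13, 12.1 and 14.8 FPKM at 6 h and 12.4, 12.4 and 12.3 FPKM at 24 h, with groups that overlapped and a change of -0.09 ± 0.18. MYC was at 2.58 and 2.09 FPKM (-0.21 ± 0.13).

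Immediate early genes respond to growth signals within minutes. Among 11 tested, 0 rose and 3 fell on the deposited scale, with 1 rise and 0 falls after rescaling. The share that fell was below the 33.4% of all tested genes, and the list median was -0.60. EGR1 was below 1 FPKM at both times, 0.529, 0.392 and 0.49 and 0.546, 0.471 and 0.551, and the groups overlapped. KLF6, KLF2 and ATF3, zinc finger and bZIP factors, fell, with changes of -1.29 ± 0.17, -1.14 ± 0.20 and -1.09 ± 0.15; without imatinib 6 h replicate 1, ATF3 was at -0.96 and not called, which leaves 2 falls. NR4A1, an orphan nuclear receptor, was higher at 24 h in every library, 2.57, 2.21 and 2.82 against 4.49, 4.49 and 4.94 FPKM. Its change was 0.68 ± 0.18 on the deposited scale, below the threshold, and it rose by 1.4 rescaled.

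FOXO target genes had a smaller median change than all genes, -0.34 against -0.77. Of 22 tested, 1 rose and 2 fell, against 0.501% and 33.4% of all tested genes. The list median was 0.48 rescaled, where 19 of 22 were above 0, against a median of 0.03 for all genes. TXNIP, the thioredoxin-interacting protein that limits glucose uptake, rose from 74.7, 71.6 and 79.4 FPKM to 194, 215 and 202. That is 2.71-fold higher (1.43 ± 0.19, adjusted p = 1.32e-06, and 2.38 rescaled). Every 24 h library lay above every 6 h library, which was also a condition for the named rises. BMF, a pro-apoptotic BH3-only protein, was at 27.1, 27.2 and 30.7 FPKM at 6 h and 30.8, 32.7 and 33 FPKM at 24 h against 5.72 in DMSO, so nearly all of its difference from DMSO was present at 6 h (change 0.18 ± 0.18). FBXO32, the ubiquitin ligase atrogin-1, went from 7.1 to 10.7 FPKM (0.54 ± 0.14), and KLHL24, a kelch protein, from 82.5 to 67.4 FPKM (-0.29 ± 0.18). The 3 rises after rescaling, where 3.98% of all tested genes rose, were TXNIP, FBXO32 (1.4) and BMF (1.11). GADD45A, a stress-induced growth arrest protein, and CCNG2, an atypical cyclin of arrested cells, fell, with changes of -1.46 ± 0.21 and -1.03 ± 0.18 and were not called rescaled. CCNG2 lost its call without imatinib 6 h replicate 3 or 24 h replicate 1 (both -0.98), which leaves 1 fall.

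Other receptor tyrosine kinases showed no called change among 17 tested on the deposited scale (0 rose and 0 fell by limma, and 2 rose rescaled). Of all tested genes 33.4% fell. In the lowest of 4 equal groups by FPKM 5.83% fell, with a median of -0.35, against -0.32 for this list. Of the 28 listed kinases 15 reached 1 FPKM in each imatinib library, and a role of low level was not tested. EPHB2, an ephrin receptor, was at 4.44, 4.23 and 5.41 FPKM at 6 h and 6.58, 7.25 and 7.02 FPKM at 24 h, with no overlap of the groups (0.49 ± 0.15; 1.29 rescaled). DDR1, a collagen receptor kinase, was level at 18.4 to 19.9 FPKM (1.02 rescaled). FGFR2, the most abundant of the list by FPKM at 6 h, went from 129 to 73 FPKM (-0.81 ± 0.18).

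DNA replication genes fell together. All 38 tested genes of the DNA replication and E2F target list fell on the deposited scale, where 33.4% of all genes did, and 30 fell rescaled, where 4.38% did. The list median was -2.31, which is -1.53 from the median of all genes, and -1.36 rescaled. RRM2, the regulatory subunit of ribonucleotide reductase, was at 287, 278 and 312 FPKM at 6 h and 20.2, 21.7 and 20.7 FPKM at 24 h. It was 14-fold lower at 24 h (-3.75 ± 0.19, adjusted p = 3.83e-12). UHRF1, which keeps DNA methylation in place behind the replication fork, was at 80.3, 78.7 and 96.9 FPKM at 6 h and 7.62, 7.03 and 7.29 FPKM at 24 h (-3.37 ± 0.20). TYMS, thymidylate synthase, and PCNA, the sliding clamp of the replicative polymerases, went from 175 to 22.5 FPKM and from 482 to 63.8 FPKM. Their changes were -2.9 ± 0.20 and -2.9 ± 0.19. The MCM helicase subunits MCM2 to MCM7 changed by between -1.8 (MCM6) and -2.52 (MCM7), and E2F1 itself went from 63.2 to 8.19 FPKM (-2.8 ± 0.21). The smallest change of the list was that of GINS4, a subunit of the GINS replication complex (-1.24, -0.32 rescaled). In no member did a 24 h library reach the level of a 6 h library. The same held for 84.5% of all tested genes, among them all 51 tested cytosolic ribosomal proteins.

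Mitosis genes showed the lowest median of the 27 lists, -2.51 and -1.6 rescaled. All 32 fell on the deposited scale and 31 fell rescaled; the exception was FOXM1, the forkhead factor that activates mitotic genes (-1.83 ± 0.20, -0.89 rescaled). AURKB, the kinase of the chromosomal passenger complex, was at 109, 103 and 117 FPKM at 6 h and 11.4, 10.1 and 12 FPKM at 24 h. Its change was -3.18 ± 0.20 (adjusted p = 4.02e-11; -2.26 rescaled). CCNA2, cyclin A2, was at 82.4, 79.1 and 87.2 FPKM at 6 h and 9.19, 9.65 and 9.71 FPKM at 24 h and was 8.71-fold lower at 24 h (-3.0 ± 0.18). PLK1, polo-like kinase, and CCNB1, cyclin B1, fell from 100.4 to 11.9 FPKM and from 335 to 44.6 FPKM (-2.97 ± 0.21 and -2.88 ± 0.19). MKI67, which encodes the proliferation antigen Ki-67, was at 66.7, 60.9 and 75.7 FPKM at 6 h and 8.37, 8.88 and 8.55 FPKM at 24 h (-2.83 ± 0.18, adjusted p = 3.85e-11). CCNA2 had a mean of 114 FPKM in DMSO and 82.9 at 6 h, and the median log2 value of the list against DMSO was -0.42 at 6 h and -2.95 at 24 h. Both comparisons with DMSO share its libraries. A mean over a culture cannot tell fewer cycling cells from less of these RNAs in each cell. With all libraries set to one total including MIR1244, 21 of the mitosis and 18 of the replication genes were still called lower.

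The promoters of these lists carry known sequence words, and 6 are printed because they show them. They are the genes of the mitosis list with both a CHR word and a CCAAT word that fell furthest, and the genes of the replication list with an E2F word that fell furthest, 3 of each. The CHR, TTTGAA, is the element at which the DREAM complex and its activating counterpart bind, CCAAT (searched as ATTGG) binds NF-Y, and TTTCCCGC and TTTGGCGC are E2F words. Both strands were searched, and the words do not overlap one another in the sequences shown. Each sequence is RefSeq's, build GRCh38.p14, from 250 bases before to 50 after the annotated start, 5′ to 3′ on the gene's strand, with every match in capitals.
PLK1, chr16:23678639-23678938, plus strand: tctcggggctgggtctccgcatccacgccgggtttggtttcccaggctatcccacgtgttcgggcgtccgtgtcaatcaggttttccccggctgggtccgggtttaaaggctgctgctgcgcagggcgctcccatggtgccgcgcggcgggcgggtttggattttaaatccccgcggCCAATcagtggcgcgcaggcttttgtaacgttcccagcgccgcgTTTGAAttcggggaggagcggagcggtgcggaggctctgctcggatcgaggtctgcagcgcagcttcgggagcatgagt
DLGAP5, chr14:55191536-55191835, minus strand: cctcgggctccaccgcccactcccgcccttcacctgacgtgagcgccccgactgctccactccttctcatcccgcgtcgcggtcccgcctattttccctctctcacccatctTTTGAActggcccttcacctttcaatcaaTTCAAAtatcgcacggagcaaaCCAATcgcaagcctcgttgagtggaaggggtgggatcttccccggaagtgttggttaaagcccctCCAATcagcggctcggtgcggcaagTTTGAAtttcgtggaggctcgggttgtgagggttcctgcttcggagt
CENPA, chr2:26785806-26786105, plus strand: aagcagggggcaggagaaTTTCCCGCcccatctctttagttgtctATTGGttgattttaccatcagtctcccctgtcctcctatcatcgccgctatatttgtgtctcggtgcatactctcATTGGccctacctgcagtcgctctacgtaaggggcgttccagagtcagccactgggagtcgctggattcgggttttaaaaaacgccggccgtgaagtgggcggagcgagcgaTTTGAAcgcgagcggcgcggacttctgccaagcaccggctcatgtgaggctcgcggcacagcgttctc
UHRF1, chr19:4909251-4909550, plus strand: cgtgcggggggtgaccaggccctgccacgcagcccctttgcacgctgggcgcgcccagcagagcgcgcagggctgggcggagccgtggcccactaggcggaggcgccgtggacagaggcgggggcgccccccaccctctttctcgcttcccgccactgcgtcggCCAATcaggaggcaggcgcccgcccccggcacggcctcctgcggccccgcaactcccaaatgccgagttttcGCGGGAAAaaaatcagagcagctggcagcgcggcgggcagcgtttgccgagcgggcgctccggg
TYMS, chr18:657403-657702, plus strand: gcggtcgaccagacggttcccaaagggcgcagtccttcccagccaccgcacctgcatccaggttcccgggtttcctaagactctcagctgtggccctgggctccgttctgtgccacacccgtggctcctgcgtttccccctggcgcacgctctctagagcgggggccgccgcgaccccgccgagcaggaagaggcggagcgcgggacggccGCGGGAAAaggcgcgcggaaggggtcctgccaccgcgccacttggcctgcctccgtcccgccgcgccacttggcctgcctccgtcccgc
PCNA, chr20:5126573-5126872, minus strand: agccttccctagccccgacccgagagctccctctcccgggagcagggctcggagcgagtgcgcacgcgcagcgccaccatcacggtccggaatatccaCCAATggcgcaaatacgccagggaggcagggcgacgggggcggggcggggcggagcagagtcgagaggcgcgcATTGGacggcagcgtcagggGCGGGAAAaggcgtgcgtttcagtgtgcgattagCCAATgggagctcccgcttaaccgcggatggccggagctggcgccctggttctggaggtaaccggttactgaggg

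PLK1 has its CHR word starting -29 bases from the start site and its CCAAT word at -73, and CENPA, the centromeric histone, has a CHR word at -18. DLGAP5, a spindle protein, has CHR words at -138, -109 and 4. The E2F word starts at -14 in UHRF1, -39 in TYMS and -59 in PCNA. A promoter was matched for 26 of the 32 mitosis genes and 33 of the 38 replication genes. The CHR word was in 17 of the 26 mitosis promoters, 65.4%, against 15.4% of all 27305 promoters of the table, and the CCAAT word was in 22, 84.6%, against 35.7%. An E2F word was in 17 of the 33 replication promoters, 51.5%, against 2.31% of all. Of the 23 CHR matches in mitosis promoters 16 started within 100 bases of the start site. A match is a description of these letters and not a bound site, and both lists were drawn from known targets of these factors.

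Cyclin-dependent kinase inhibitors did not rise as the cycle genes fell. Of 17 tested genes of the cyclin D, inhibitor and quiescence list 13 fell and 0 rose, with 1 fall rescaled. The median was -1.28, against -0.77 for all tested genes, of which 33.4% fell. CDKN1B, the inhibitor p27 that FOXO factors induce, was at 147, 149 and 159.8 FPKM at 6 h and 56.2, 67.2 and 64.1 FPKM at 24 h, a change of -1.27 ± 0.19 that was -0.32 rescaled. CDKN1A, the inhibitor p21, was near 1 FPKM at 6 h and lower at 24 h, 1.07 to 0.275 FPKM (-0.70 ± 0.14). LIN9, a subunit shared by the DREAM and MYBL2 complexes, fell on both scales, from 31.2 to 6.7 FPKM (-2.07 ± 0.17, -1.18 rescaled). RBL1, the pocket protein p107, and CCND3 fell, with changes of -1.79 ± 0.16 and -1.6 ± 0.20 and were not called rescaled.

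The 12 rising genes named here are those of largest size among rises called on both scales, with at least 5 FPKM at 24 h and no overlap of the groups. CD24 was at 5.35, 4.53 and 6.3 FPKM at 6 h and 30.4, 36.4 and 34 FPKM at 24 h against 4.95 in DMSO. It was 6.22-fold higher at 24 h (2.44 ± 0.16, adjusted p = 9.36e-11; 3.3 rescaled). MB was at 1.06, 1.24 and 2.22 FPKM at 6 h and 9.91, 10.9 and 11.2 FPKM at 24 h (2.25 ± 0.17, adjusted p = 4.13e-10). SULF2, which trims sulfate from heparan sulfate chains, was at 2.04, 1.91 and 2.62 FPKM at 6 h and 12.4, 13.9 and 13.1 FPKM at 24 h (2.15 ± 0.16). For all 3 genes the 24 h libraries lay well above the DMSO libraries too, while their separation from 6 h was a condition of the choice. The 6 h libraries of CD24 and SULF2 lay near DMSO, whose means were 4.95 and 2.23 FPKM, while those of MB all lay above its DMSO libraries (mean 0.762 FPKM).

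LY86, which encodes the secreted partner MD-1 of a Toll-like receptor homolog, was at 0.705, 0.823 and 1.31 FPKM at 6 h and 6.28, 8.26 and 8.79 FPKM at 24 h (2.17 ± 0.16). FOLR1, a folate receptor, went from 2.0 to 9.42 FPKM (1.81 ± 0.17). Among them were COL23A1, a transmembrane collagen (2.11 to 8.78 FPKM, 1.66 ± 0.16), LOXL4, a lysyl oxidase that cross-links collagen (3.37 to 12.4 FPKM, 1.63 ± 0.13), and ABI3BP, an extracellular matrix protein (5.36 to 17.9 FPKM, 1.57 ± 0.15). SPTLC3, a serine palmitoyltransferase subunit of sphingolipid synthesis, went from 2.14 to 8.34 FPKM (1.57 ± 0.13), and ATP8A2, a phospholipid flippase, from 1.42 to 5.64 FPKM (1.46 ± 0.16). TXNIP was the most abundant of the 12. GTF2IRD2P1 is a pseudogene with near-identical copies, so its change (1.41 ± 0.14) is uncertain. Of the 64 rises 60 had a 24 h mean above the DMSO mean.

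The falls of largest size joined lipid carriers, tubulins and cycle genes. They were named by the same rule as the rises, with at least 5 FPKM at 6 h and no overlap of the groups. FABP5 and FABP4, which carry fatty acids in the cytosol, were at 1392, 1336 and 1479.7 FPKM at 6 h and 73.9, 83.7 and 76.5 FPKM at 24 h, and at 538, 537 and 559 FPKM at 6 h and 29.4, 33.5 and 31.9 FPKM at 24 h. They were 18-fold and 17.2-fold lower at 24 h, with changes of -4.15 ± 0.18 and -4.07 ± 0.18 (adjusted p = 2.8e-13 for each; -3.19 and -3.12 rescaled). Both had already been lower at 6 h than in DMSO, where their means were 4840.3 and 1309. ITGA4, the integrin alpha 4 subunit, was at 41.4, 39.5 and 44.2 FPKM at 6 h and 1.9, 2.44 and 2.19 FPKM at 24 h (-3.75 ± 0.16). TUBA1B and TUBA1C, alpha tubulins with near-identical sequences, fell from 2430.1 to 207 FPKM and from 1391 to 128 FPKM (-3.54 ± 0.20 and -3.43 ± 0.20), and reads of the copies may have been divided between them. NME1, a nucleoside diphosphate kinase whose locus overlaps a read-through gene with NME2, was at 615 and 52 FPKM (-3.54 ± 0.20). MYBL2, a factor of late cycle genes, and SPC25, a kinetochore protein, fell, with changes of -3.26 ± 0.21 and -3.25 ± 0.18. The remaining named falls were ETV4, ETV5, RRM2 and UHRF1.

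Glycolysis and oxidative phosphorylation genes fell in larger shares than the 33.4% of all tested genes. In the highest of 4 equal groups of genes by FPKM 60.1% fell, with a median of -1.14. The 2 lists were not compared with genes of like expression level. Of 21 tested glycolysis genes 14 fell and 0 rose, and 5 fell rescaled (PFKP, ALDOA, PGK1, PGAM1 and ENO1). The list median was -1.39 (-0.75 rescaled), against -0.77 (0.03) for all genes. ENO1, enolase, was at 668, 655 and 670.1 FPKM at 6 h and 102, 103 and 88.1 FPKM at 24 h (-2.75 ± 0.22, -1.8 rescaled). ALDOA, aldolase, went from 1683 to 317 FPKM (-2.41 ± 0.22), and PGK1 and PGAM1, the next kinase and mutase, changed by -2.14 ± 0.20 and -1.98 ± 0.20. GAPDH, often used as a constant reference, was 3.58-fold lower (-1.84 ± 0.21, -0.88 rescaled). SLC16A3, the lactate exporter MCT4, went the other way, 5.83, 5.74 and 7.47 against 10.4, 11.1 and 10.7 FPKM (0.69 ± 0.17, short of the threshold; 1.53 rescaled, a called rise). Among 32 oxidative phosphorylation subunits 25 fell, with a list median of -1.325 (-0.37 rescaled), also below that of all genes. Only ATP5G1, of the ATP synthase ring, fell rescaled (282 to 56.6 FPKM, -2.3 ± 0.19, -1.34 rescaled).

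Amino acid and one-carbon genes driven by ATF4 were lower by more than most, 14 of 20 falling with a median of -1.53 (-0.59 rescaled, 3 falls). MTHFD2, the mitochondrial folate enzyme, went from 104 to 16.3 FPKM (-2.6 ± 0.18), and the amino acid transporters SLC7A5 and SLC7A11 from 23.2 to 4.14 FPKM and from 5.58 to 0.593 FPKM (-2.23 ± 0.19 and -2.04 ± 0.11). These 3 were the falls after rescaling; SLC3A2, their shared heavy chain (-1.81 ± 0.19), was not called there (-0.87). Cholesterol synthesis kept to the shift of all genes, with 6 of 23 falling, a median of -0.78 and 0 calls rescaled; ACAT2 and EBP fell most (-1.82 and -1.71). In the list of fatty acid uptake, storage and oxidation 4 of 19 fell and 1 rose, the rise being MB. Among all tested genes a larger share, 33.4%, fell. Besides the FABP genes the falls were ETFA, an electron transfer flavoprotein (-1.62 ± 0.18), and ACADVL, an acyl-CoA dehydrogenase (-1.13 ± 0.21).

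Ribosome biogenesis factors fell on the deposited scale, 21 of 28 with a median of -1.3, against 33.4% and -0.77 for all tested genes. Rescaled, 0 were called (median -0.41), where 4.38% of all fell. NCL, nucleolin, was at 667, 593 and 714 FPKM at 6 h and 190.0, 207 and 186 FPKM at 24 h (-1.75 ± 0.20). MRTO4, NOP56 and RRP12, which act in ribosome assembly, changed by -1.78 ± 0.18, -1.78 ± 0.20 and -1.73 ± 0.18. The mRNAs of 51 cytosolic ribosomal proteins had a median near that of all genes, -0.84 and 0.12 rescaled. Among them were 9 falls, a smaller share than the 33.4% of all, and 0 calls rescaled. RPL35 (-1.38), RPSA (-1.3), RPL27 (-1.18) and RPL8 (-1.16) were the lowest, and genes of this family share reads with many pseudogenes. Without imatinib 24 h replicate 2 the count of falls was 14.

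Of 11 tested genes of the BCL2 family list 5 fell and 0 rose, against 33.4% and 0.501% of all tested genes. After rescaling 1 fell, against 4.38% of all. The list median was -0.96 (-0.15 rescaled), somewhat below the -0.77 (0.03) of all genes. The list did not hold the BH3-only genes BCL2L11 and BMF, which stood in the FOXO list with changes of -0.03 and 0.18, and BMF rose rescaled. The fall rescaled was BID, the BH3-only protein cleaved by caspase, from 25.5 to 4.52 FPKM (-2.26 ± 0.18, -1.39 rescaled). The effectors BAX and BAK1 fell, with changes of -1.45 ± 0.22 and -1.43 ± 0.18, BCL2L2 by -1.06 ± 0.17 (not called without imatinib 6 h replicate 3, -0.996), and BBC3, the p53-induced protein PUMA, by -1.05 ± 0.17. BCL2L11, which encodes BIM, a mediator of imatinib killing in KIT-driven cells, was at 4.35, 4.42 and 6.54 FPKM at 6 h and 4.61, 5.07 and 4.97 FPKM at 24 h. The groups overlapped and the change was -0.03 ± 0.17, with a positive value after rescaling (0.76). MCL1 and BCL2L1 changed by -0.87 ± 0.20 and -0.96 ± 0.19. Among 19 p53 targets 4 fell (FAS -1.68, PPM1D -1.25, MDM2 -1.17 and POLH -1.01) and 0 rose, with 0 calls rescaled. POLH was not called without imatinib 6 h replicate 3 (-0.88) or 24 h replicate 1 (-0.95). The p53 list fell in a smaller share than the 33.4% of all tested genes, with a median of -0.48.

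Of 27 tested autophagy and lysosome genes 9 fell and 0 rose, with 1 fall and 1 rise rescaled; the share that fell was near that of all tested genes, 33.4%. CTSL1, cathepsin L, was at 412, 389 and 426 FPKM at 6 h and 61.8, 66 and 58.8 FPKM at 24 h (-2.7 ± 0.19, -1.74 rescaled), and GLA, SQSTM1 and GABARAPL1 fell, with changes of -1.92 ± 0.18, -1.75 ± 0.21 and -1.72 ± 0.20. HEXA, a hexosaminidase, was at 72 and 75.9 FPKM, the rise after rescaling (1.03). Interferon response genes fell in 8 of 26 and rose in 0, a share below that of all genes, and the list median was -0.68 against -0.77. Of these, IFI27 (24.6 to 5.31 FPKM, -2.03 ± 0.20) and the chemokine CXCL10 (3.19 to 0.12 FPKM, -1.9 ± 0.13) fell on both scales, and OAS3 and GBP1 changed by -1.7 ± 0.16 and -1.42 ± 0.14. In antigen presentation by MHC class I 4 of 15 fell, also a smaller share than of all genes, led by the peptide transporter subunit TAP2 (18.3 to 3.85 FPKM, -1.99 ± 0.18; -1.14 rescaled), then CALR (-1.56), PSMB8 (-1.15) and PDIA3 (-1.04).

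Of 13 tested smooth muscle genes 4 fell and 1 rose, with a list median of -0.80, and the share of falls was near the 33.4% of all genes. MYLK, myosin light chain kinase, was at 13.4, 11.4 and 13.6 FPKM at 6 h and 25.1, 30.4 and 26.5 FPKM at 24 h against 9.15 in DMSO, with every 24 h library above every 6 h library (1.04 ± 0.17, adjusted p = 8.82e-06; 1.94 rescaled). On the deposited scale MYLK lost its call without imatinib 6 h replicate 2 (0.97) or 24 h replicate 2 (0.96). FLNA, filamin A, and CALD1, caldesmon, fell on both scales, from 311 to 63 FPKM and from 466 to 99.8 FPKM (-2.29 ± 0.20 and -2.21 ± 0.19). SMTN and VCL changed by -1.51 ± 0.20 and -1.07 ± 0.19 and were not called rescaled. Of 21 extracellular matrix genes 4 fell (COL4A1 -1.72, FBN1 -1.56, TIMP1 -1.5 and LOXL2 -1.23), 0 rose, and COL6A1 was the rise rescaled (1.02). That is a smaller share of falls than among all genes, and the list median was -0.46. Among 11 YAP and TEAD targets 4 fell: TEAD4 (6.62 to 1.04 FPKM, -1.9 ± 0.16; -1.21 rescaled), AMOTL2 (-1.81), CYR61 (-1.26) and CTGF (-1.08). CTGF was not called without imatinib 6 h replicate 3 (-0.98). The share of this list that fell was near the 33.4% of all genes, and its median was -0.76, against -0.77 for all.

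**Figure D3:**
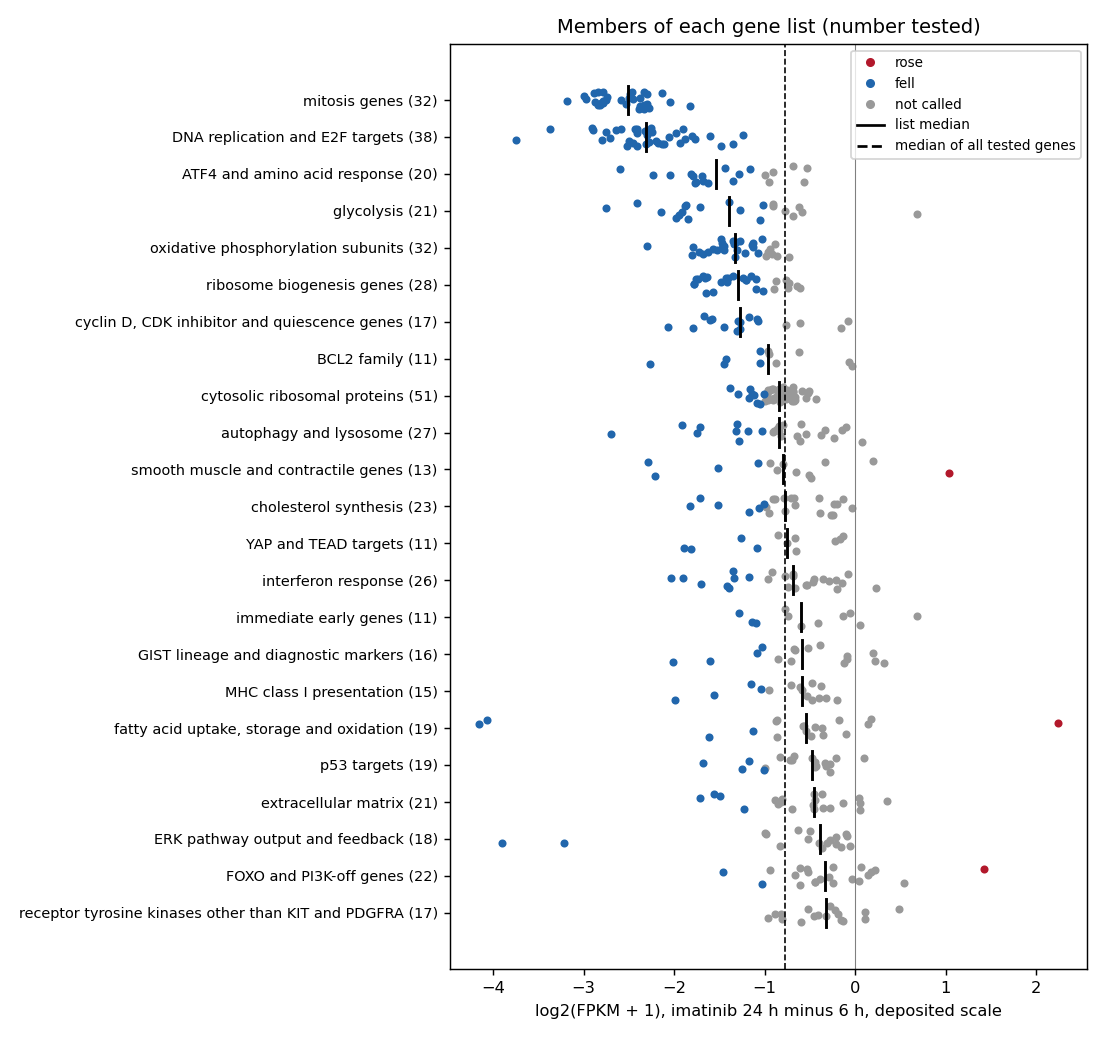
Log2(FPKM + 1) difference, imatinib 24 h minus 6 h on the deposited scale, of each tested member (points, red rose, blue fell, grey not called) of the lists with at least 5 tested members; black bars are list medians and the dashed line is the median of all tested genes, -0.77. Mitosis and DNA replication genes lie furthest left, with medians of -2.51 and -2.31.

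Markers of other cell types were mostly near the lowest values of the table in all 6 libraries. PTPRC, which marks leukocytes, was between 0.0938 and 0.106 FPKM, PECAM1, which marks endothelium, between 0.093 and 0.114, SOX10, which marks glia, between 0.0937 and 0.106, and CDH1, which marks epithelium, between 0.152 and 0.265. Tested were 3 of 11 epithelial, 2 of 11 leukocyte, 1 of 9 endothelial and 4 of 12 neural and glial markers. KRT18, a keratin (195 to 42 FPKM, -2.19 ± 0.20), and TUBB3, a beta tubulin (73.6 to 9.48 FPKM, -2.83 ± 0.21), fell. Summed levels of the epithelial list were 186 to 211 FPKM at 6 h and 44.6 to 47.1 at 24 h, nearly all KRT18. They were 74.9 to 83.7 and 12 to 12.5 for the neural list, 8.53 to 10.6 and 4.82 to 5.37 for the leukocyte list, and 1.92 to 2.84 and 1.18 to 1.26 for the endothelial list.

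To see which of these changes differ from the course of another drug, the change from 6 h to 24 h with imatinib was compared with that with JQ1, which shares no library with it. JQ1 displaces BET proteins from acetylated chromatin, and its median change over the same interval was -0.45. In the limma test of the difference 191 genes were higher with imatinib (1.5%) and 986 lower (7.72%); rescaled, the counts were 502 and 325. All but 1 of the 32 mitosis genes and 28 of the 38 replication genes were lower with imatinib. The exception in the mitosis list was FOXM1, whose difference was -0.75 ± 0.29. The list medians were -2.51 with imatinib and -0.66 with JQ1 for mitosis, and -2.31 and -0.97 for replication. After rescaling 31 and 17 members were lower. Both lists started from unequal levels. At 6 h the mean log2(FPKM + 1) of the mitosis list was 6.54 to 6.74 with imatinib and 5.74 to 5.95 with JQ1. For replication it was 6.05 to 6.26 and 5.71 to 5.91. The part of the starting levels in these differences was not tested.

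The ERK feedback genes showed the opposite order. Of the 18 tested ERK output genes 5 were higher in this difference and 1, ETV4, lower. DUSP6 changed by -0.99 with imatinib and -3.28 with JQ1, a difference of 2.29 ± 0.26 (adjusted p = 3.49e-06). It started from unequal levels, 3.06 FPKM at 6 h in imatinib and 130.3 at 6 h in JQ1. CCND1 changed by -0.09 with imatinib and -2.2 with JQ1, a difference of 2.11 ± 0.25; its means with JQ1 were 23.2 and 4.29 FPKM. SPRY4 and SPRY2 differed by 1.33 ± 0.24 and 1.39 ± 0.26. CTGF, a matricellular YAP target, had the largest positive difference among genes whose mean reached 5 FPKM in some group, 3.25 ± 0.24. Its means were 90.5 and 3.56 FPKM at 6 h and 24 h of JQ1, and 1.71 and 0.271 FPKM with imatinib. It thus reached 5 FPKM only at 6 h of JQ1 and also started from unequal levels. The added 1 makes its change with imatinib, -1.08, smaller than the ratio of FPKM. CD24, ABI3BP and MB came next above DUSP6, at 2.58 ± 0.23, 2.53 ± 0.21 and 2.36 ± 0.24; with JQ1 they changed by -0.14, -0.96 and -0.12.

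Among the largest negative differences, MXD3, a MAX partner, was at 58.4, 60.1 and 67.2 FPKM at 6 h and 7.14, 8.14 and 8.89 FPKM at 24 h of imatinib and at 20 and 24.8 FPKM with JQ1, a difference of -3.09 ± 0.29. BMF was nearly level with imatinib while its mean with JQ1 went from 0.973 to 17.7 FPKM, a difference of -3.06 ± 0.25. NDC80, SPC25 and CDCA3, which act at kinetochores and in mitotic entry, differed by -2.85 ± 0.24, -2.56 ± 0.25 and -2.57 ± 0.26. TXNIP changed alike in sign with both drugs, 1.43 and 1.1, and the difference of 0.32 ± 0.27 was not called; MYLK likewise changed by 1.04 and 1.01. KIT differed by 0.89 ± 0.25, below the size threshold, and was called higher rescaled (1.3).

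**Figure D4:**
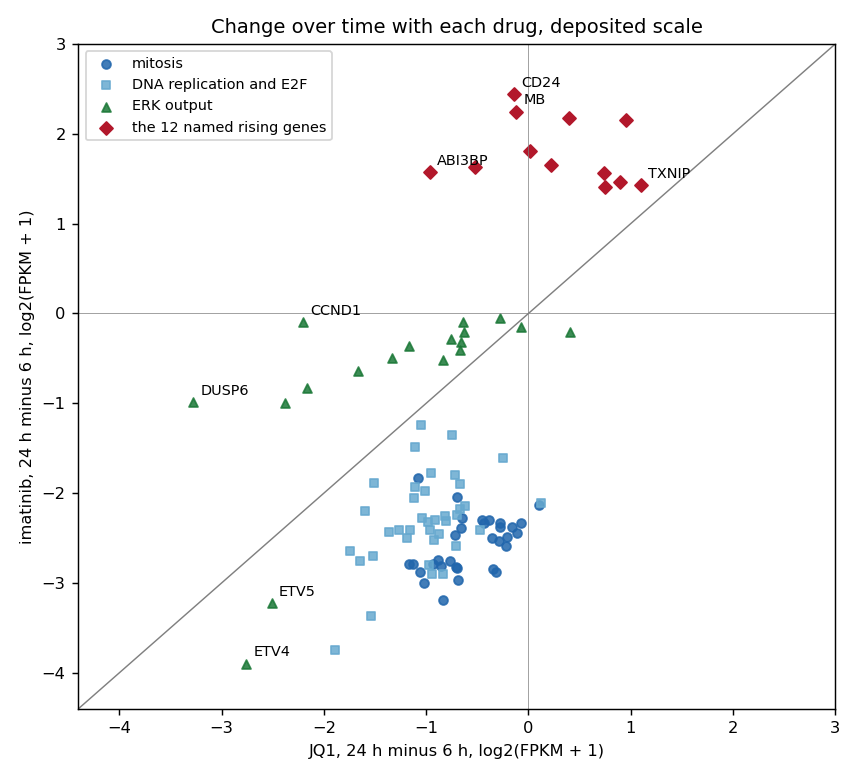
Log2(FPKM + 1) change from 6 h to 24 h with JQ1 (horizontal axis) and with imatinib (vertical axis) for members of the mitosis, DNA replication and ERK output lists and the 12 named rising genes; the diagonal marks equal change. Mitosis and replication genes lie below the diagonal, and most ERK output genes and the named rising genes lie above it.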

How the data were processed

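RNA was measured in GIST-T1 cells in 6 groups of 3 libraries. Per the labels' protocols, RNA was taken in relation to cell number, ERCC spike-ins were added, and sequencing of stranded mRNA libraries was single-end with 75 bases. The submitters' processing notes name STAR, Cufflinks and hg19, with versions not given in the sources used here. The authors deposited FPKM values in 1 table (23713 rows: 23621 genes and 92 spike-ins); how they normalized them is not given. Depth is unknown, so the spread between libraries sets the precision (Pearson r 0.981 to 0.986 within the imatinib groups).

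The test took the 12771 genes that reached 1 FPKM in 3 or more libraries, 20 of them under names turned into dates. One limma fit (3.58.1, R 4.3.3, trend) on log2(FPKM + 1) held a mean for each of the 6 groups with 12 residual degrees of freedom; the two-sided tests were Benjamini-Hochberg adjusted, and checked on simulated data. A JQ1 24 h column with the number 1 matches no title and was used as an unnumbered library. Named genes were 15 fixed genes, the 12 largest rises and falls, up to 4 called members of each of 27 lists, and the 5 largest differences from JQ1 in each direction; clone names and small RNAs, including SNAR, an exclusion added after values were seen, were not named. Other genes given with values were chosen after their values were seen. The members and lists were chosen with earlier results of these data known. Alternatives were other scalings, added values, filters, array weights, a replicate block, a fit of the compared groups alone and leaving out each library. Some genes of these lists are not reported here by name.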

Additional observations from a re-analysis of the deposited data

Results flagged for a closer look

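The change from 6 h to 24 h differed between imatinib and JQ1 for 191 genes that were higher and 986 that were lower with imatinib, by limma's test of the difference itself. Among the genes the naming rule picked, those called in this difference were as follows. The log2 difference (imatinib minus JQ1) was positive for CTGF 3.25, CD24 2.58, ABI3BP 2.53, MB 2.36, DUSP6 2.29, LOXL4 2.14, CCND1 2.11, FOLR1 1.79, LY86 1.78, COL23A1 1.44, SPRY4 1.33, SULF2 1.2 and GBP1 1.04. It was negative for MXD3 -3.09, BMF -3.06, NDC80 -2.85, CDCA3 -2.57, SPC25 -2.56, AURKB -2.35, FABP4 -2.31, PLK1 -2.28, MKI67 -2.14, TYMS -2.07, CCNA2 -1.98, PCNA -1.96, RRM2 -1.85, CCNG2 -1.83, FABP5 -1.83, UHRF1 -1.83, CCNB1 -1.82, MYBL2 -1.72, TUBA1B -1.63, TUBA1C -1.45, FLNA -1.36, GABARAPL1 -1.32, RBL1 -1.27, ITGA4 -1.22, ALDOA -1.19, SLC7A11 -1.14, ETV4 -1.14, LIN9 -1.13 and EBP -1.04. The largest adjusted p among them by limma was 0.00992 (EBP). After ratio rescaling FLNA -0.96, GABARAPL1 -0.92, RBL1 -0.91, ITGA4 -0.9, ALDOA -0.78, SLC7A11 -0.72, ETV4 -0.99, LIN9 -0.74 and EBP -0.65 were no longer called at these values, and the others of these genes were. MKI67 and RRM2, both fallen with imatinib, changed by -0.70 and -1.89 with JQ1.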

How the results depend on the processing

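Leaving out each of the 6 imatinib libraries in turn gave 60 to 72 rising and 3788 to 4620 falling genes, and no count of all genes moved by over 1.5 times. Counts moved with the scale. Rising genes numbered 508 after ratio rescaling, 1660 with one total, 718 with one total without MIR1244, 154 with 0.1 in place of 1 as the added value, 30 with a mean of at least 5 FPKM and 98 with array weights, whose estimation stopped before it converged. Falling genes numbered 560, 232 and 477 under the same rescalings. The median change was 0.031, 0.422 and 0.123 there, -0.902 with 0.1 added, -0.127 without a filter and -0.931 at 5 FPKM. Genes higher than with JQ1 numbered 502, 650 and 533 under the rescalings, 413, 125 and 303 with 0.1 added, at 5 FPKM and with array weights; genes lower numbered 325, 314, 372 and, with 0.1 added, 1504. The ratio of totals without MIR1244 was 0.475.

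With a replicate block in the imatinib groups 89 genes rose and 4304 fell, with a median of -0.774. Same-numbered libraries of both times did not deviate together (r of 0.086, -0.033 and 0.023 over genes). Deviations from means of 3 libraries cannot tell whether same-numbered libraries shared a culture or batch, which is not stated.

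Genes whose sign turned were, after ratio rescaling, ANO1 0.28, BCL2L11 0.76, CCND1 0.80, ETV1 0.83, FOXF1 0.44, HAND1 0.86, KIT 0.57, KLHL24 0.66, MYC 0.46, PNRC1 0.34 and SPRED2 0.39. With one total they were ANO1 0.73, BARX1 0.34, BCL2L11 1.19, BCL2L2 0.15, CCND1 1.25, CCNG2 0.33, CDKN1B 0.14, ETV1 1.28, FOXF1 0.90, HAND1 1.32, KIT 1.03, KITLG 0.096, KLHL24 1.11, LOXL2 0.034, MDM2 0.16, MVD 0.17, MYC 0.85, OSR1 0.33, PDIA3 0.37, PNRC1 0.79, POLH 0.057, PPM1D 0.018, PSMB8 0.092, RPL27 0.24, RPL35 0.044, RPL8 0.27, RPSA 0.12, SPRED2 0.83, SPRY2 0.39, SPRY4 0.28 and VCL 0.30. With one total without MIR1244 they were ANO1 0.39, BARX1 0.007, BCL2L11 0.88, CCND1 0.91, ETV1 0.94, FOXF1 0.55, HAND1 0.98, KIT 0.68, KLHL24 0.77, MYC 0.57, PDIA3 0.027, PNRC1 0.45, SPRED2 0.50 and SPRY2 0.049. BCL2L11 turned to 0.14 with array weights and lay between -0.121 and 0.127 with one imatinib library left out, positive without 6 h replicate 3. Rescaling removes the shift of all genes by its construction; the cause of the other moves was not tested. Depth in reads is unknown, so low values have no counting interval.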

Other observations

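Gene families taken by their names, after their values had been seen, added further groups. Of all tested genes 33.4% fell and 0.501% rose, and rescaled 4.38% fell and 3.98% rose. The families were not compared with other genes of like expression level. Of 37 proteasome subunits 35 fell on the deposited scale and 22 rescaled, with medians of -2.04 and -1.08. Of 16 tubulins 13 fell and 10 rescaled (-2.64 and -1.76). SRSF splicing factors fell in 10 of 11 and in 7 rescaled (-1.96 and -1.03), and CCT chaperonin subunits, which fold tubulin and actin, in 7 of 8 and in 2 rescaled. Of 80 mitochondrial ribosomal proteins 68 fell, but 3 rescaled, and of 17 aminoacyl-tRNA synthetases 13 fell and 5 rescaled. Kinesins, motor proteins of which several act in the spindle, fell in 17 of 31 and in 10 rescaled, and Fanconi anemia genes of DNA repair in 8 of 10 and in 3 rescaled. Against these, 2 of 22 collagens rose and 2 fell, with 5 rises and 0 falls rescaled and medians of -0.10 and 0.63. Among 11 cathepsins 2 fell, and rescaled 3 rose and 1 fell. ZNF genes fell in 44 of 395, with a median of -0.59.

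The change also went with expression level: the share of genes that fell was 5.83%, 25%, 42.7% and 60.1% over 4 equal groups of genes from low to high mean FPKM over DMSO and the single-drug groups, and the median change was -0.35, -0.72, -0.92 and -1.14. Rescaled medians were 0.18, 0.10, -0.013 and -0.19. The added 1 makes changes of low genes smaller, and its part in this order was not tested. The small RNA SNAR-C3, singled out after its values were seen, spread widely between replicates, 20.6, 60 and 203 FPKM at 6 h and 0.0709, 0.075 and 10.5 at 24 h, and rows of such RNAs were not named elsewhere.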
